A study of Homo sapiens with 9 samples.

Results

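The genes described here are the subunits, activators, inhibitor and assembly factors of the proteasome. They were chosen as the protein-coding genes whose symbol is PSM followed by a letter from A to G and a number, which gave 49 of the 58735 genes in the count table. RNA was measured in MIA PaCa-2, an established line of pancreatic cancer cells that the labels list as wild type, with 3 libraries per condition. Cells received 1 µM SCH772984, an inhibitor of the kinases ERK1 and ERK2, or 1 µM compound 1, an inhibitor of the kinases TBK1 and IKKε. The control cells received 0.1% DMSO, and all cells were harvested after 24 h. Every condition comes from 1 cell line in culture, and the labels do not say whether the 3 libraries of a condition came from separate cultures, so the p-values measure only the spread between these libraries.

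The proteasome is the protease that degrades ubiquitin-tagged proteins in the cytosol and nucleus. Its 20S core is a barrel of alpha subunits (PSMA), which gate the entry, and beta subunits (PSMB), some of which carry the catalytic sites. The 19S cap binds ubiquitin chains and unfolds the substrate with a ring of ATPases (PSMC) and a set of non-ATPase subunits (PSMD). Interferon-exposed and immune cells replace the catalytic subunits PSMB5, PSMB6 and PSMB7 with PSMB8, PSMB9 and PSMB10, which gives the immunoproteasome, and they raise the activator PA28, made of PSME1 and PSME2. The peptides it cuts are carried by the TAP transporter to class I antigen presentation.

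The 49 genes comprised 7 alpha and 7 constitutive beta subunits, 6 ATPases and 11 non-ATPase subunits of the 19S cap, 5 genes of the immunoproteasome and PA28, and 7 assembly factors. A further 3 encode other activators or an inhibitor (PSME3, PSME4, PSMF1), and 2 encode tissue-restricted core subunits, the testis subunit PSMA8 and the thymus subunit PSMB11. The last gene, PSMC3IP, fits the symbol pattern but encodes a recombination factor, not a part of the proteasome. PSMA8 had 0 counts in all 9 libraries, and PSMB11 had 2, 0 and 1 counts with SCH772984 and 0 elsewhere. These 2 genes did not pass the filter on low counts, and the other 47 were tested in every comparison.

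Library totals were 9464432 to 13887859 counts. Of 8 genes that report ERK output, such as DUSP6 and SPRY4, 8 fell with SCH772984 and 0 were called with compound 1. Calls used the edgeR quasi-likelihood test at an adjusted p under 0.05. Over all genes tested 35.5% were lower with SCH772984, and 0.490% were higher and 0.374% lower with compound 1. The epithelial keratins KRT8, KRT18 and KRT19 and the mesenchymal filament gene VIM were expressed in every library, while the epithelial marker EPCAM had 0 counts in every library and CDH1 at most 5. With SCH772984, KRT8 fell by 1.69 ± 0.06, KRT18 by 2.40 ± 0.06 and VIM by 0.23 ± 0.06 on the log2 scale (adjusted p = 1.85e-27, 4.04e-32 and 0.000899, edgeR), KRT19 was at 0.11 ± 0.07 and did not pass, and their part in the results was not tested. Of 5 immune markers, the leukocyte gene PTPRC and the T cell gene CD3E had 0 counts in all libraries, CD68 had at most 1, and the highest count of any was 13. Their summed level was 1.10 to 1.86 CPM (counts scaled to the same normalized library size) with DMSO, 1.08 to 1.46 with compound 1 and 0.506 to 1.08 with SCH772984. Of 3 endothelial markers 1 was tested and fell with SCH772984, and of 3 fibroblast markers 2 were tested and rose. Their summed levels were 2.87 to 4.49 and 6.68 to 8.20 CPM with DMSO, 6.24 to 6.78 and 4.91 to 7.32 with compound 1, and 0 to 0.537 and 43.5 to 52.9 with SCH772984. The endothelial sum was higher in every compound 1 library than in any DMSO library, where CDH5, the 1 gene tested, did not pass (0.75 ± 0.22, adjusted p = 0.114, unadjusted p = 0.0033, edgeR), and their part in the results was not tested.

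With ERK inhibition the proteasome genes split into groups that moved in opposite directions. All 5 genes of the immunoproteasome and PA28 rose with SCH772984, and none of the other 42 tested genes did. Of those 42, 36 fell, and the falls covered every PSMC and PSMD subunit of the 19S cap and every constitutive beta subunit. The median log2 fold change of the 47 genes was -0.49, beside 0.03 for all 13834 genes tested. Over all genes 35.5% were lower and 37.2% were higher at an adjusted p under 0.05, so a rise or fall by itself is common in this comparison. Among the proteasome genes 76.6% were lower and 10.6% were higher.

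The whole set took a smaller share of the RNA in the ERK-inhibited cells. The 49 genes held 0.739% to 0.750% of the counts of the DMSO libraries, 0.736% to 0.778% of those with compound 1 and 0.573% to 0.592% of those with SCH772984. After TMM normalization their summed level was 7796 ± 130 CPM in the DMSO libraries, 7761 ± 374 under compound 1 and 5458 ± 102 under SCH772984 (SD, n = 3). The 3 SCH772984 libraries lay below all others on both scales. In bulk RNA, fewer cells that express a gene and less RNA per cell cannot be told apart.

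**Figure D1:**
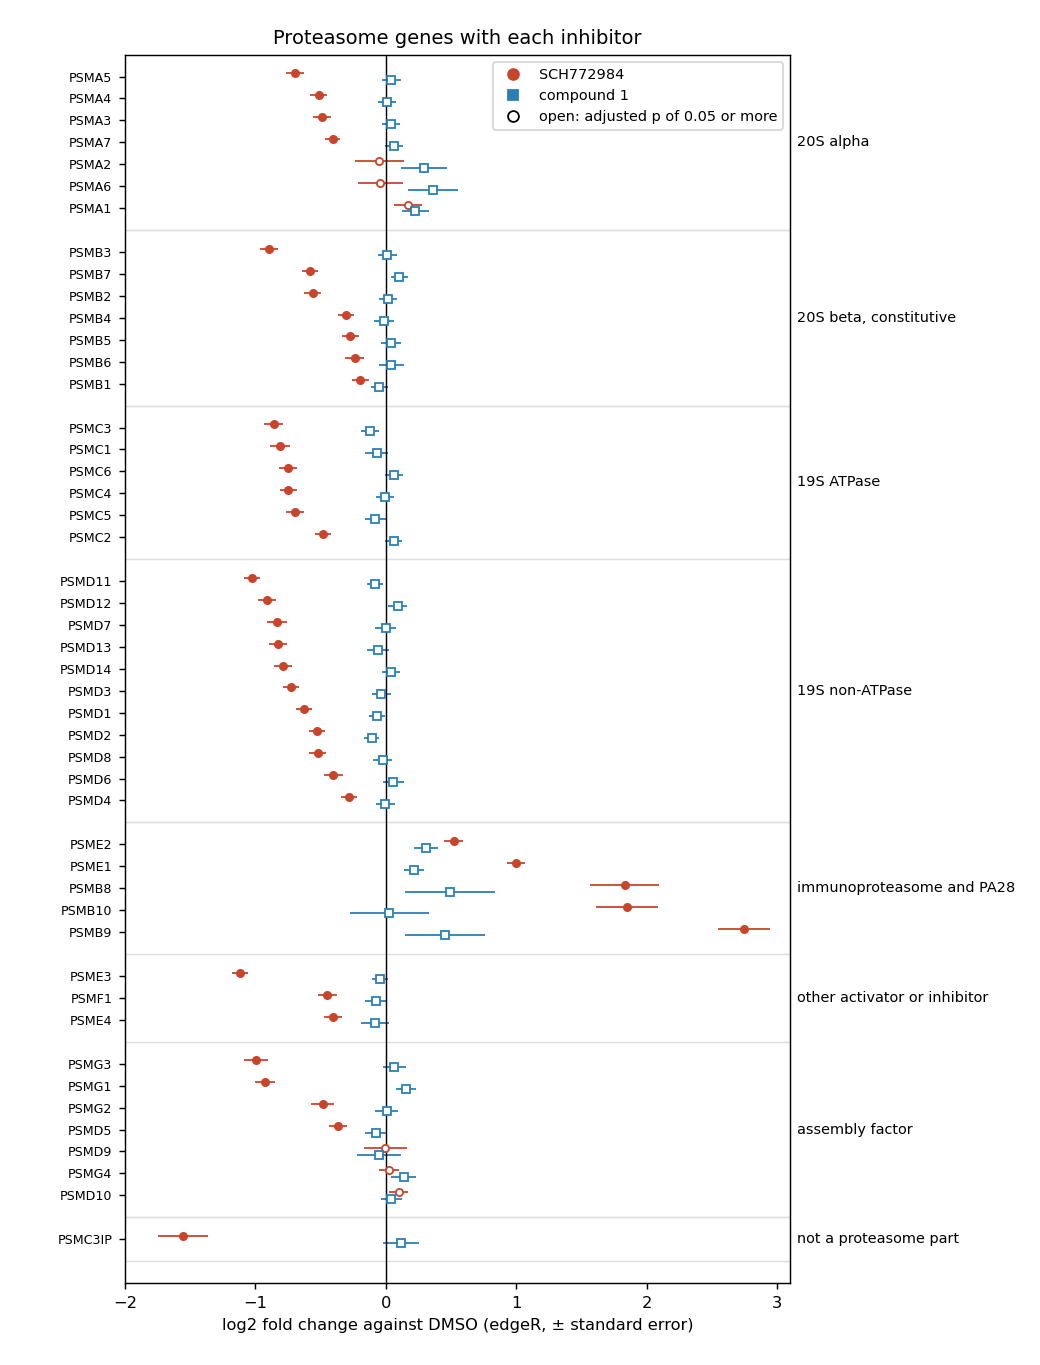
Log2 fold change against DMSO (horizontal axis, edgeR estimate ± SE, 3 libraries per condition) for the 47 tested proteasome genes, grouped by role. Circles are SCH772984 and squares are compound 1, with open symbols at an adjusted p of 0.05 or more. The 5 genes of the immunoproteasome and PA28 lie right of 0 with SCH772984, 36 others lie left of 0 with filled symbols, and the squares cluster near 0 and are all open.

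The 3 inducible catalytic subunits had low counts in the DMSO cells and rose most with SCH772984. CPM per kilobase of annotated exon, a level scale that allows for gene length but counts every annotated exon, used in these cells or not, were 0.548 ± 0.0939 for PSMB8, 1.02 ± 0.492 for PSMB9 and 1.10 ± 0.177 for PSMB10 with DMSO. Their constitutive partners were at 94.5 ± 1.39 for PSMB5, 101 ± 4.14 for PSMB6 and 133 ± 5.33 for PSMB7 on the same scale. PSMB8 had the lowest level of the 47 genes on this scale. The level of PSMB10 is uncertain, since most of its coding bases are shared with another annotated gene and the sources used here do not give how reads in shared exons were assigned.

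PSMB9, the inducible counterpart of PSMB6 (ENSG00000240065, hg38 chromosome 6, 32844136 to 32859585), had the largest rise of all proteasome genes. Its levels were 4.31, 3.64 and 1.42 CPM with DMSO (42, 33 and 13 counts), 4.63, 4.18 and 4.05 CPM with compound 1, and 22.9, 18.7 and 22.1 CPM with SCH772984 (275, 221 and 329 counts). DMSO replicate 3 was low, and the SCH772984 libraries lay far above all others. The log2 fold change was 2.74 ± 0.20 (SE), or 6.70-fold, with an adjusted p of 6.2e-14 (edgeR).

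PSMB8, the inducible counterpart of PSMB5 (ENSG00000204264, chromosome 6, 32840717 to 32844703), is the neighbour of PSMB9, and their gene models overlap. It had 1.74, 1.33 and 1.86 CPM with DMSO (17, 12 and 17 counts), 2.69, 1.36 and 2.91 with compound 1, and 6.48, 5.32 and 5.91 with SCH772984 (78, 63 and 88 counts). The compound 1 libraries overlapped DMSO and the SCH772984 libraries did not. The rise with SCH772984 was 1.83 ± 0.26 on the log2 scale (adjusted p = 4.51e-08, edgeR). Of its exonic bases 20.6% are shared with PSMB8-AS1, an antisense gene, or PSMB9.

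PSMB10, the inducible counterpart of PSMB7 (ENSG00000205220, chromosome 16, 67934502 to 67937087), had 2.26, 1.66 and 2.19 CPM with DMSO (22, 15 and 20 counts). It had 2.48, 2.09 and 1.66 CPM with compound 1 and 7.15, 7.93 and 7.12 with SCH772984 (86, 94 and 106 counts). Compound 1 and DMSO libraries intermixed, while SCH772984 stood clear of both. The log2 fold change with SCH772984 was 1.85 ± 0.24 (adjusted p = 2.9e-09, edgeR), and 58.3% of the coding bases of PSMB10 are shared with another annotated gene, so its level is uncertain and the part of shared exons in its result was not tested.

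The PA28 activator genes were well expressed without any inhibitor. PSME1 (ENSG00000092010, chromosome 14, 24136158 to 24138967) had 71.9, 72.7 and 72.4 CPM with DMSO, 89.9, 80.4 and 81.1 with compound 1, and 146, 142 and 147 with SCH772984. PSME2 (ENSG00000100911, chromosome 14, 24143362 to 24147570), which lies 4394 bases from PSME1, had 70.4, 73.5 and 62.2 CPM with DMSO, 94.7, 79.5 and 80.2 with compound 1, and 97.7, 97.7 and 101 with SCH772984. For both genes every compound 1 library lay above every DMSO library and below every SCH772984 library. Neither passed with compound 1 against DMSO (adjusted p = 0.205 and 0.129, edgeR). In 10.3% of all genes tested every compound 1 library lay above every DMSO library. With SCH772984 PSME1 rose by 1.00 ± 0.07 on the log2 scale (adjusted p = 2.38e-17), and PSME2 rose by 0.52 ± 0.07 (adjusted p = 3.67e-08, both edgeR).

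**Figure D2:**
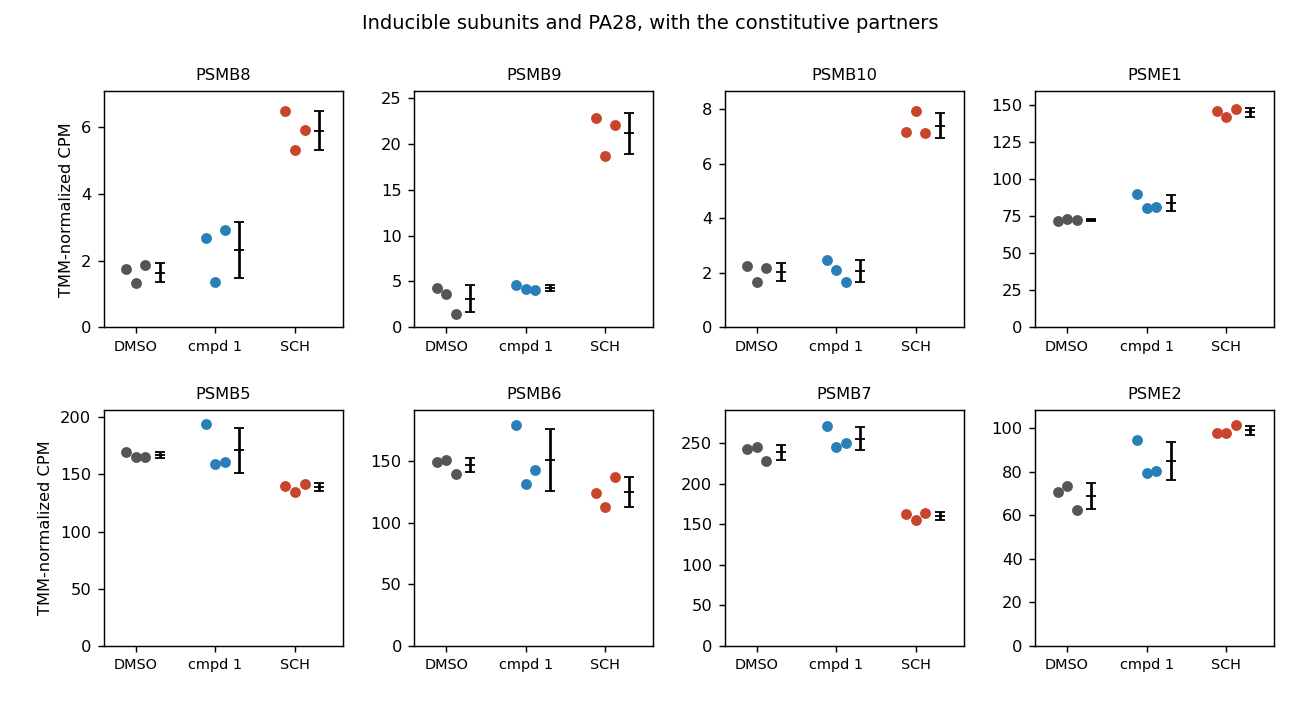
TMM-normalized CPM (vertical axes from 0) in each of the 9 libraries for the inducible subunits PSMB8, PSMB9 and PSMB10, their partners PSMB5, PSMB6 and PSMB7, and the PA28 genes PSME1 and PSME2. Dots are libraries (DMSO, compound 1 labelled cmpd 1, SCH772984 labelled SCH), and bars give the mean ± SD of 3. The inducible genes and PA28 are highest in the SCH772984 libraries and the partners are lowest there, except that 1 compound 1 library of PSMB6 lies within their range.

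Promoter sequences of these genes are shown because 4 of the 5 hold the core of an interferon-stimulated response element, the motif bound by interferon regulatory factors. It was searched as GAAA, any 2 bases and GAAA on both strands, from 250 bases before to 50 bases after the start, in RefSeq promoters of GRCh38.p14, where 43 of the 49 genes have an entry. The motif was found in 7 of those 43 genes (16.3%), and in 4.38% of all 27305 genes or 3.57% of all 35116 promoters. Windows of 30 bases are printed for the 4 genes that rose and for the nearby TAP1 promoter, on the strand of each gene and with the match in capitals.
PSMB8: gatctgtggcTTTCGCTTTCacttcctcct
PSMB10: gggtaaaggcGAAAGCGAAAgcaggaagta
PSME1: gccctaccgcTTTCGCTTTCccttcgcggt
PSME2: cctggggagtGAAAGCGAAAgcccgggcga
TAP1: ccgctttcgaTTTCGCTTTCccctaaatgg

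These windows lie at chr6:32844032-32844061 on the minus strand (PSMB8), chr16:67936852-67936881 on the minus strand (PSMB10), chr14:24136189-24136218 on the plus strand (PSME1), chr14:24146619-24146648 on the minus strand (PSME2) and chr6:32853813-32853842 on the minus strand (TAP1). The match spans bases -4 to 6 relative to the start in PSMB8, -21 to -12 in PSMB10, 6 to 15 in PSME1, -28 to -19 in PSME2 and -128 to -119 in TAP1. The PSMB9 window held no match. PSMB9 and TAP1 are transcribed away from each other on chromosome 6, and the TAP1 match, which overlaps a further match of the same motif, lies between their RefSeq starts. The other matches were in PSMG4, PSMA4 and PSMB4, so that of the 7 genes with the motif 4 rose, 2 fell and 1 did not pass the test with SCH772984. A match is a description of the sequence and not evidence of binding.

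The constitutive catalytic subunits moved the other way. PSMB5 (ENSG00000100804, chromosome 14, 23016543 to 23035230), which carries the chymotrypsin-like site, had 170, 165 and 166 CPM with DMSO, 194, 159 and 161 with compound 1, and 140, 135 and 141 with SCH772984. PSMB6 (ENSG00000142507, chromosome 17, 4796144 to 4798503), with the caspase-like site, had 150, 151 and 140 CPM with DMSO, 179, 131 and 143 with compound 1, and 124, 113 and 137 with SCH772984. Both were below DMSO in all 3 SCH772984 libraries, by small amounts, with log2 fold changes of -0.27 ± 0.06 and -0.24 ± 0.07 (adjusted p = 0.000202 and 0.00225, edgeR). With scaling by library size alone these 2 falls no longer passed the test, at -0.10 (adjusted p = 0.152) and -0.06 (adjusted p = 0.401).

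PSMB7 (ENSG00000136930, chromosome 9, 124353466 to 124415444), with the trypsin-like site, fell further. It had 242, 245 and 228 CPM with DMSO, 271, 245 and 250 with compound 1, and 162, 155 and 163 with SCH772984. The SCH772984 libraries were clearly the lowest, at -0.58 ± 0.06 on the log2 scale (adjusted p = 3.49e-11, edgeR).

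The balance of inducible to constitutive RNA was higher with SCH772984 in all 3 pairs. Per kilobase of annotated exon, PSMB9 RNA was 1.37%, 1.16% and 0.498% of PSMB6 RNA in the DMSO libraries and 8.72%, 7.79% and 7.60% in those with SCH772984. PSMB8 was 0.623%, 0.492% and 0.681% of PSMB5 with DMSO and 2.75%, 2.34% and 2.47% with SCH772984. PSMB10 was 0.917%, 0.672% and 0.950% of PSMB7 with DMSO and 4.27%, 4.97% and 4.22% with SCH772984, and these shares carry the uncertainty in the level of PSMB10. The ranges with DMSO and with SCH772984 did not overlap in any pair, and PSMB9 to PSMB6 changed most.

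On the log2 scale these ratios were higher with SCH772984 by 3.12 for PSMB9 to PSMB6, 2.42 for PSMB10 to PSMB7 and 2.09 for PSMB8 to PSMB5. Each had p = 0.10 in a two-sided exact permutation test, the smallest that 3 against 3 libraries allow, and 0.20 after Benjamini-Hochberg adjustment over 6 ratio tests, so no ratio could pass a threshold of 0.05. With compound 1 the differences were 0.56, -0.08 and 0.39 for the same pairs (exact permutation p = 0.3, 0.5 and 0.3). These differences moved with single libraries. PSMB9 to PSMB6 was at 0.11 without DMSO replicate 3 and at 0.85 without DMSO replicate 1, PSMB8 to PSMB5 was at 0.15 without compound 1 replicate 3 and at 0.68 without compound 1 replicate 2, and PSMB10 to PSMB7 ran from -0.23 to 0.05. Those libraries overlapped the DMSO range in all 3 pairs.

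**Figure D3:**
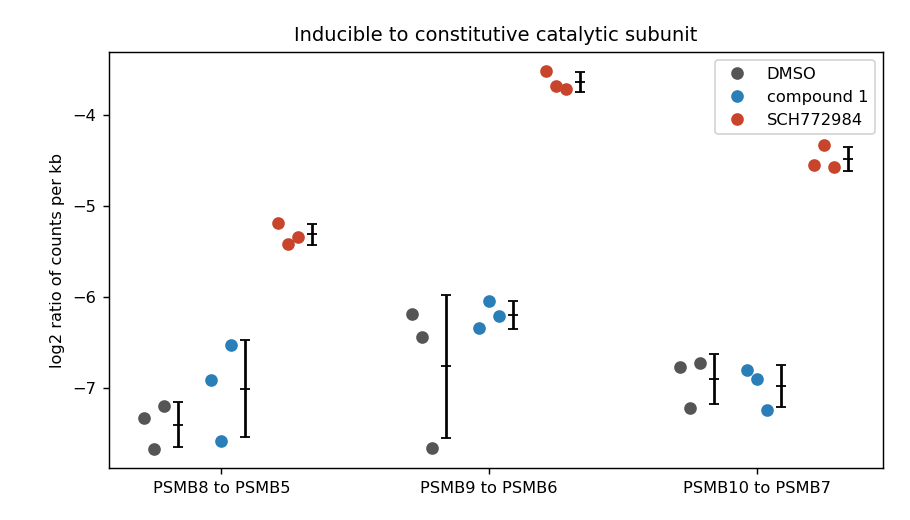
Log2 ratio of counts per kilobase (vertical axis) of each inducible catalytic subunit to its constitutive partner, 1 dot per library, with bars for the mean ± SD of 3. The SCH772984 libraries lie above all DMSO and compound 1 libraries in each pair, and DMSO replicate 3 is the lowest for PSMB9 to PSMB6.

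Of the 7 constitutive beta subunits, 7 fell with SCH772984, with a median log2 fold change of -0.30 and a range of -0.89 to -0.19. Scaled by library size alone, this median was -0.13 and 4 of the 7 fell, since PSMB1, PSMB5 and PSMB6 did not pass. The largest fall was in PSMB3 (ENSG00000277791, chromosome 17, 38752736 to 38764231), a non-catalytic ring subunit. It had 207, 221 and 206 CPM with DMSO, 235, 203 and 200 with compound 1, and 114, 105 and 123 with SCH772984. SCH772984 stood well below all other libraries, at -0.89 ± 0.07 on the log2 scale (adjusted p = 4.07e-16, edgeR). The rest were PSMB2 at -0.56, PSMB4 at -0.30 and PSMB1 at -0.19, and PSMB1 had the smallest fall that passed the test. PSMB1 lost its call with scaling by library size alone (-0.02, adjusted p = 0.786) and with a filter of 10 counts in every library (-0.11, adjusted p = 0.0936).

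Of the 7 alpha subunits, 4 fell and 3 did not pass the test. PSMA5 (ENSG00000143106, chromosome 1, 109399031 to 109426427) had 172, 174 and 157 CPM with DMSO, 179, 158 and 178 with compound 1, and 101, 105 and 105 with SCH772984. PSMA4 (ENSG00000041357, chromosome 15, 78540405 to 78552419) had 183, 193 and 168 CPM with DMSO, 181, 185 and 181 with compound 1, and 130, 127 and 125 with SCH772984. In both genes SCH772984 was separate and low, with log2 fold changes of -0.70 ± 0.07 (adjusted p = 9.47e-13) and -0.52 ± 0.07 (adjusted p = 2.82e-09, edgeR). PSMA3 fell by 0.49 on the log2 scale and PSMA7 by 0.41.

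The 3 alpha genes that did not pass, PSMA1 at 0.17 ± 0.11, PSMA2 at -0.05 ± 0.19 and PSMA6 at -0.04 ± 0.17, share 88.6%, 97.1% and 70.4% of their coding bases with another annotated gene. Their mean levels in DMSO were 7.22 to 21.9 CPM, against 167.5 to 444.2 CPM for the 4 alpha genes that fell, which share none. How the counting assigned reads in such shared exons is not given in the sources used here, so the levels of these genes are uncertain, and the part of shared exons in their result was not tested. PSMA1 lay above DMSO in all 3 SCH772984 libraries and passed as higher with scaling by library size alone (0.35, adjusted p = 0.00435) and with the filter of 10 counts in every library (0.25, adjusted p = 0.0345).

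The PSMC and PSMD genes of the 19S cap fell together. All 6 ATPases were lower with SCH772984, with a median log2 fold change of -0.75 and a range of -0.86 to -0.48. The ATPases with the largest falls were PSMC3 (ENSG00000165916, chromosome 11, 47418769 to 47426473) and PSMC1 (ENSG00000100764, chromosome 14, 90256495 to 90275429). PSMC3 had 129, 134 and 132 CPM with DMSO, 127, 120 and 116 with compound 1, and 76.7, 72.2 and 69.8 with SCH772984. PSMC1 had 129, 131 and 111 CPM with DMSO, 113, 111 and 128 with compound 1, and 69.5, 79.3 and 64.3 with SCH772984. The drop was clear of the spread in both, at -0.86 ± 0.07 (adjusted p = 5.02e-15) and -0.81 ± 0.08 (adjusted p = 1.88e-12, edgeR). Of the exonic bases of PSMC1, 75.8% are shared with NRDE2 on the opposite strand, which makes its value uncertain. The other ATPases were PSMC6 at -0.75, PSMC4 at -0.75, PSMC5 at -0.69 and PSMC2 at -0.48.

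All 11 non-ATPase subunits fell, with a median log2 fold change of -0.73 and a range of -1.02 to -0.28. PSMD11 (ENSG00000108671, chromosome 17, 32444261 to 32483318), a lid subunit, had 254, 264 and 260 CPM with DMSO, 244, 244 and 245 with compound 1, and 131, 129 and 124 with SCH772984. PSMD12 (ENSG00000197170, chromosome 17, 67337916 to 67366627), also of the lid, had 175, 180 and 172 CPM with DMSO, 174, 194 and 191 with compound 1, and 97.9, 98.5 and 84.7 with SCH772984. Both showed tight replicates and no overlap, with log2 fold changes of -1.02 ± 0.06 (adjusted p = 4.24e-19) and -0.91 ± 0.07 (adjusted p = 5.16e-16, edgeR).

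The deubiquitinase of the lid, PSMD14, was at -0.79, and its binding partner PSMD7 was at -0.84. The large scaffold subunits PSMD1 and PSMD2 were at -0.63 and -0.53. The lid subunits PSMD13, PSMD3, PSMD8 and PSMD6 were at -0.83, -0.73, -0.52 and -0.40. The ubiquitin receptor PSMD4 had the smallest fall of the cap, -0.28 ± 0.06, and did not pass with scaling by library size alone (-0.11, adjusted p = 0.108).

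Summed RNA of the cap was lower relative to that of the core in the SCH772984 libraries. Summed CPM of the 17 cap genes divided by that of the 14 alpha and constitutive beta genes was 1.47, 1.48 and 1.52 with DMSO, 1.37, 1.44 and 1.45 with compound 1, and 1.31, 1.29 and 1.26 with SCH772984. The SCH772984 libraries had the lowest ratios and the DMSO libraries the highest, with no overlap between conditions. These sums follow the most abundant genes, and no test was made of them.

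**Figure D4:**
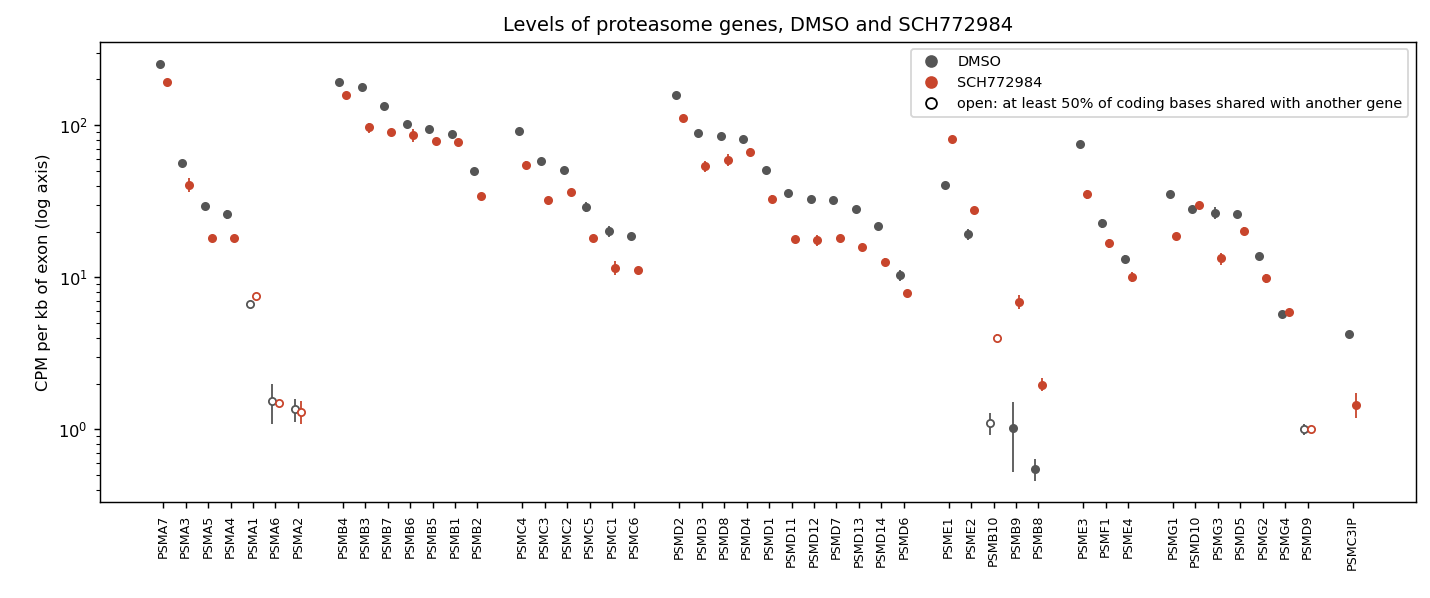
Mean level with DMSO and with SCH772984 in CPM per kilobase of exon (vertical log axis, bars ± SD of 3 libraries) for the 47 tested genes, grouped in the order alpha, constitutive beta, 19S ATPase, 19S non-ATPase, immunoproteasome and PA28, other activators or inhibitor, assembly factors and PSMC3IP. Open symbols share at least 50% of their coding bases with another gene. With DMSO the levels run from 0.548 (PSMB8) to 254 (PSMA7), and 4 of the 5 open genes are low in both conditions and did not pass the test.

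Levels per kilobase of annotated exon differed within the core and the cap, whose subunits are built in equal number. With DMSO, PSMA7 led all genes at 254 ± 3.74 CPM per kilobase, followed by PSMB4 at 194 ± 9.39, PSMB3 at 179 ± 7.49, PSMD2 at 159 ± 2.38 and PSMB7 at 133 ± 5.33. The libraries of the neighbours PSMB4 and PSMB3 overlapped in range. At the low end of the cap PSMD6 was at 10.3 ± 0.854. Lengths count every annotated exon of a gene, used in these cells or not, and PSMD6 has 9123 such bases.

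The assembly factors split. PSMG1 to PSMG4 encode chaperones of the alpha ring, and PSMD5, PSMD9 and PSMD10 encode chaperones of the ATPase ring. PSMG3 (ENSG00000157778, chromosome 7, 1567330 to 1571005) had 56.6, 51.6 and 47.7 CPM with DMSO, 56.2, 52.9 and 53.8 with compound 1, and 24.9, 24.5 and 28.9 with SCH772984. PSMG1 (ENSG00000183527, chromosome 21, 39174769 to 39183851) had 90.2, 88.3 and 87.7 CPM with DMSO, 104, 97.4 and 94.1 with compound 1, and 46.8, 49.5 and 44.8 with SCH772984. SCH772984 brought both well below every other library, at -0.997 ± 0.09 (adjusted p = 5.02e-13) and -0.92 ± 0.08 (adjusted p = 8.97e-15, edgeR). PSMG2 was at -0.48 and PSMD5 at -0.37, so that 4 of 7 fell. The other 3 did not pass the test, PSMG4 at 0.03 ± 0.08, PSMD10 at 0.10 ± 0.07 and PSMD9 at 0.00 ± 0.16. PSMG4 had no stable direction, since it passed as higher with scaling by library size alone (0.20, adjusted p = 0.0200, edgeR) and as lower with the trend with gene length removed (-0.18, adjusted p = 0.0383). PSMD9 shares 58.7% of its coding bases with another gene, so its level is uncertain too, and PSMD10 passed as higher with scaling by library size alone (0.27, adjusted p = 0.00104) and with the filter of 10 counts in every library (0.18, adjusted p = 0.0286).

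The remaining regulators also fell, in contrast to PA28. PSME3 (ENSG00000131467, chromosome 17, 42824385 to 42843758), the nuclear relative of PSME1 and PSME2, had 382, 394 and 396 CPM with DMSO, 373, 373 and 389 with compound 1, and 194, 174 and 173 with SCH772984. The SCH772984 libraries were the lowest by a wide margin, and -1.12 ± 0.06 on the log2 scale (adjusted p = 1.47e-20, edgeR) was the largest fall among the PSM-named genes that encode parts of the proteasome. PSMF1 (ENSG00000125818, chromosome 20, 1113263 to 1189415), an inhibitor of the core in vitro, had 112, 129 and 120 CPM with DMSO, 120, 107 and 114 with compound 1, and 92.3, 81.4 and 91.6 with SCH772984. It was at -0.45 ± 0.07 (adjusted p = 4.14e-07), and the activator PSME4 was at -0.41 ± 0.07 (adjusted p = 1.7e-06, both edgeR).

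PSMC3IP (ENSG00000131470, chromosome 17, 42572315 to 42577831), the recombination factor, had 10.6, 11.04 and 11.06 CPM with DMSO, 11.9, 12.1 and 11.3 with compound 1, and 4.41, 3.80 and 3.02 with SCH772984. At -1.56 ± 0.19 on the log2 scale (adjusted p = 8.78e-10, edgeR) it had the largest fall of the 47. It shares the symbol pattern only.

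With compound 1, the inhibitor of TBK1 and IKKε, the fold changes of proteasome RNA were centred near 0 and none passed the test. Of the 47 genes tested, 0 were higher and 0 were lower at an adjusted p under 0.05 (edgeR), where 0.490% and 0.374% of the 12849 genes tested were. The smallest adjusted p was 0.129, and DESeq2 also called 0 in each direction. The share of all genes called rested on single libraries, with 3.46% higher and 6.10% lower without compound 1 replicate 1 and 0.0380% and 0.0228% without DMSO replicate 2, while 0 proteasome genes were called in either fit. The median log2 fold change was 0.03, the range was -0.12 to 0.49 and the standard errors were 0.06 to 0.35. At an unadjusted p under 0.05, 3 genes were higher and 0 were lower, beside 7.35% and 7.69% of all genes. All compound 1 libraries lay above all DMSO libraries in 6 of the 47 genes (PSME1, PSME2, PSMA1, PSMB7, PSMG1 and PSMC3IP) and below them in 4 (PSMC3, PSMD1, PSMD2 and PSMD11), beside 10.3% and 10.6% of all genes.

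Those 3 were PSME2 at 0.31 ± 0.09 (unadjusted p = 0.00445), PSME1 at 0.22 ± 0.08 (unadjusted p = 0.0154) and PSMA1 at 0.23 ± 0.11 (unadjusted p = 0.0471), with edgeR adjusted p of 0.129, 0.205 and 0.325. PSMB8 at 0.49 ± 0.35, PSMB9 at 0.45 ± 0.31 and PSMB10 at 0.03 ± 0.31 had wide errors, with 12 to 43 counts per library in this comparison. Without 1 library, PSMB8 ran from 0.29 (without compound 1 replicate 3) to 0.76 (without compound 1 replicate 2), PSMB9 from 0.11 (without DMSO replicate 3) to 0.76 (without DMSO replicate 1) and PSMB10 from -0.11 (without compound 1 replicate 1) to 0.16 (without compound 1 replicate 3), and none of them passed in any fit. A difference of the size seen with SCH772984 lies many standard errors away for PSMB9 and PSMB10. Of 15 alternatives, PSME2 passed in that with the replicate number as a block (adjusted p = 0.0448, edgeR), and the others gave adjusted p up to 0.388.

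The direct comparison of the inhibitors gave 5 genes higher and 36 lower with SCH772984 than with compound 1, beside 33.7% and 32.6% of the 13863 genes tested, with a median log2 fold change of -0.49. PSMB9 was at 2.31 ± 0.16, PSMB10 at 1.83 ± 0.24, PSMB8 at 1.35 ± 0.27 and PSME1 at 0.79 ± 0.09. PSME2 was at 0.22 ± 0.09 with an adjusted p of 0.0402 (edgeR), and lost its call in 9 of 15 alternatives, with adjusted p from 0.00161 to 0.239 over the 15. Those 9 included each fit without 1 SCH772984 library (0.21 to 0.23 on the log2 scale) and those without compound 1 replicate 2 (0.17) or replicate 3 (0.16).

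A few of the smaller falls in this comparison lay near the threshold and lost their calls when 1 library was left out, some with little change in size. PSMB6, at -0.27 with all libraries, was at -0.14 without compound 1 replicate 1, -0.27 without SCH772984 replicate 1 and -0.21 without SCH772984 replicate 2. PSMA6, at -0.40 with all libraries, was at -0.27 without compound 1 replicate 1 and at -0.41, -0.41 and -0.36 without SCH772984 replicates 1, 2 and 3. PSME4, at -0.31 with all libraries, lost its call without compound 1 replicate 2 (-0.23), compound 1 replicate 3 (-0.29) or SCH772984 replicate 3 (-0.25). PSMD5, at -0.28, lost it without compound 1 replicate 2 (-0.24) or SCH772984 replicate 3 (-0.23), and PSMD4, at -0.27, without SCH772984 replicate 2 (-0.25) or replicate 3 (-0.24). All of these kept their direction.

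Genes that work with the proteasome but carry no PSM symbol mostly fell with SCH772984. Of 30 such genes 23 were lower, 2 were higher and 5 did not pass, beside 35.5% lower and 37.2% higher of all genes tested. Their median log2 fold change was -0.35, beside 0.03 for all genes. With compound 1 none was called (0 of 30 in each direction), near the 0.374% lower and 0.490% higher of all genes. POMP, the maturation factor of the core, was at -1.20 ± 0.07 (adjusted p = 2.5e-19). The ubiquitin receptor ADRM1 and its partner, the deubiquitinase UCHL5, were at -1.01 ± 0.07 (adjusted p = 6.34e-17) and -1.45 ± 0.08 (adjusted p = 6.68e-21, edgeR). The small cap subunit SEM1 did not pass, at 0.13 ± 0.07.

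The transcription factor NFE2L1, which drives proteasome genes when the proteasome is impaired, was higher at 0.44 ± 0.06 (adjusted p = 1.27e-08), with 249.7 ± 8.91 CPM with DMSO and 340.2 ± 4.20 with SCH772984. Its activating protease DDI2 was lower at -0.89 ± 0.10 (adjusted p = 6.06e-11), and its relative NFE2L3 fell from 183 ± 1.11 to 54.0 ± 5.29 CPM, or -1.77 ± 0.07 on the log2 scale (adjusted p = 1.77e-25, edgeR). The related factor NFE2L2 was at 0.01 ± 0.08 and did not pass. The core of the antioxidant response element, TGACNNNGC, which such factors bind, was searched on either strand. It was found in the promoters of 15 of the 43 genes (34.9%), and in 16.1% of all genes or 13.3% of all promoters. Those 15 included PSMB9, PSME1 and PSME2, which rose with SCH772984, and PSMD9, which did not pass. The rest fell, and the part of the motif in these changes was not tested. Of the other motifs searched, the ETS site CCGGAAGT was in 10 of the 43 genes (4.95% of all genes), CACGTG in 3 (8.77%) and CCAAT in 21 (39.7%), on either strand.

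Genes of antigen presentation and interferon signalling rose alongside the immunoproteasome. Of the 8 genes reported here 7 were higher with SCH772984 and 0 were lower, beside 37.2% higher and 35.5% lower of all genes tested. Their median log2 fold change was 1.73, beside 0.03 for all genes. The list was chosen with earlier results of these data known, so its tally is a description. The peptide transporter gene TAP1 was at 1.97 ± 0.07 (adjusted p = 6.5e-28), the loading factor gene TAPBP at 1.73 ± 0.07 (adjusted p = 2.41e-26) and the class I light chain gene B2M at 1.09 ± 0.06 (adjusted p = 2.1e-20, edgeR). The regulators NLRC5, IRF1, STAT2 and IRF9 were at 2.10, 1.88, 1.73 and 0.98. TAP2 at -0.21 ± 0.10 did not pass the test.

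With compound 1 the gene called in this list was B2M, higher at 0.45 ± 0.06 (adjusted p = 0.00477, edgeR). It had 294 ± 13.95 CPM with DMSO and 402 ± 17.4 with compound 1. Over all genes tested 0.490% were higher and 0.374% were lower in this comparison. TAP1 was at -0.04 ± 0.08 there. Because both inhibitors were compared with the same DMSO libraries, their values are given side by side and not correlated.

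**Figure D5:**
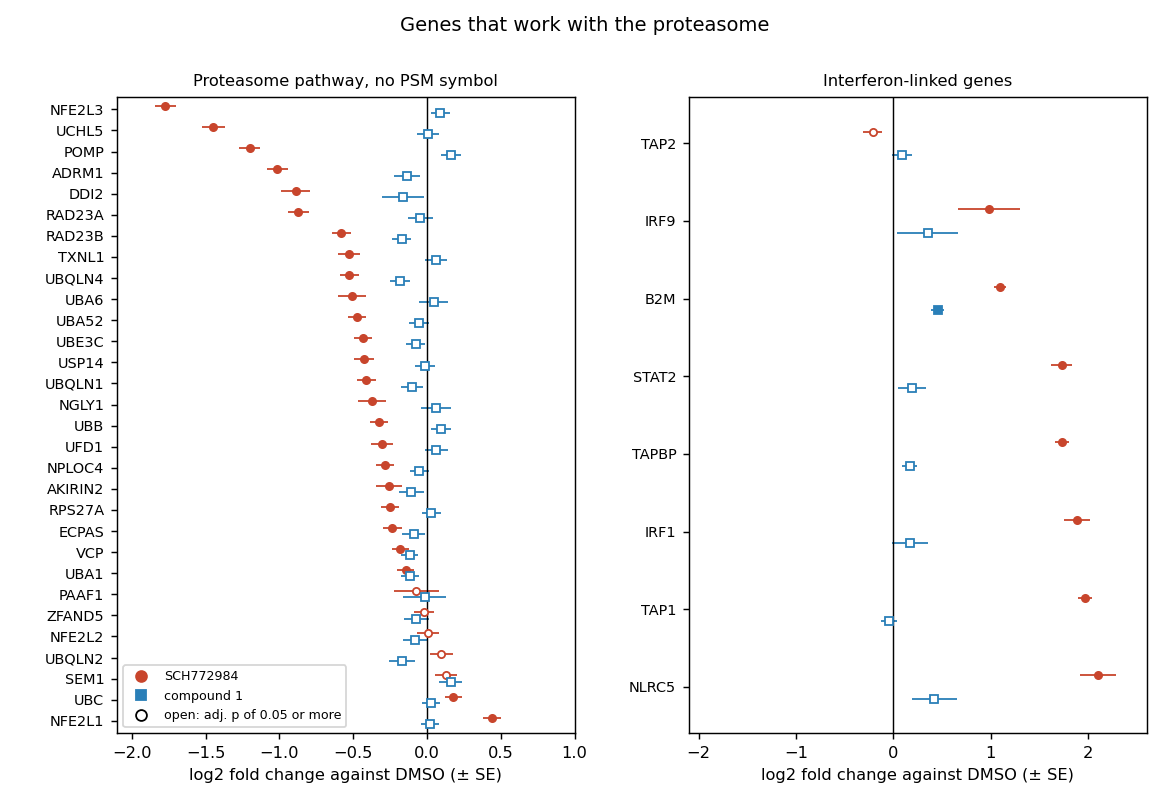
Log2 fold change against DMSO (horizontal axes, edgeR estimate ± SE, 3 libraries per condition) for 30 genes of the proteasome pathway without a PSM symbol (left) and 8 interferon-linked genes (right). Circles are SCH772984, squares are compound 1, and open symbols have an adjusted p of 0.05 or more. Most circles lie left of 0 on the left and right of 0 on the right, and B2M has the single filled square.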

How the data were processed

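The authors deposited 1 table of raw counts, in which each value is the whole number of reads assigned to a gene in a library. The submitters' processing notes name hg38, HISAT2 2.0.5 and featureCounts 1.5.0-p3, and the strand setting is not given in the sources used here. Lengths and coordinates follow GENCODE 29. Libraries were grouped by their labels. Each comparison of 2 conditions was fitted on its 6 libraries with edgeR 4.0.16 in R 4.3.3 (robust quasi-likelihood test, TMM, filterByExpr with a minimum count of 10 and a minimum total of 15). P-values were adjusted by Benjamini-Hochberg over all genes tested, with a threshold of 0.05. Ratios used log2 of counts plus 0.5 per length and a two-sided exact permutation test.

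The members and gene lists were chosen with earlier results of these data known, and 1 further gene of the interferon-linked list is not reported here, so its tally is not that of the whole list. Values per library are given for the immunoproteasome and PA28, their constitutive partners, PSMC3IP and the 2 genes of each other class with the largest change with SCH772984. Sequences are from RefSeq (GRCh38.p14). Alternatives covered scaling, filters, a joint fit, the replicate number, DESeq2 1.42.0, gene length (5 spline degrees of freedom) and leaving out each library. Standard errors cover counting error and the spread between libraries.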

Additional observations from a re-analysis of the deposited data

How the results depend on the processing

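With SCH772984 against DMSO, 5 proteasome genes were higher and 36 lower in every fit that left out 1 library. Scaling by library size alone moved the median of all genes by 0.17 on the log2 scale and gave 8 higher (PSMA1, PSMD10 and PSMG4 added) and 32 lower. The median of the proteasome genes was then -0.32. It was -0.52 with no filter (all genes 0.36), -0.41 with 10 counts in every library, -0.44 with protein-coding genes alone, -0.61 with the trend with gene length removed, which moved the median of all genes by -0.14, and -0.53 to -0.50 without 1 library. Minus the median of all genes it was -0.52 in the fit reported, -0.52 with library size alone, -0.88 with no filter, -0.43 with 10 counts in every library and -0.50 with the length trend removed. Against compound 1 it was -0.35 with library size alone, -0.42 with 10 counts in every library, -0.57 with the length trend removed and -0.53 to -0.48 without 1 library, with 32 to 35 lower without 1 library. Library size alone left 29 lower there (PSMB4, PSMB5, PSMB6, PSMD4, PSMD5, PSME4 and PSMA6 lost), 10 counts in every library left 31, and removing the length trend gave 39. For compound 1 against DMSO, 3 genes were higher at an unadjusted p. The cause of these shifts was not tested.

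Over single genes in each alternative, 694 values kept their status, called or not called, with SCH772984 against DMSO. A further 5 lost a call and 5 gained one in the same direction. PSMG4, not called at 0.03, was called lower at -0.18 with the length trend removed, which gave 37 lower, and higher with library size alone. For the 2 inhibitors against each other 665 kept their status, 37 lost a call and 3 gained one. The log2 ratio of PSMB10 to PSMB7 with compound 1 ran from -0.23 to 0.0549 without 1 library, and turned positive without compound 1 replicate 3 (0.0549) or DMSO replicate 3 (0.0154).

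Replicate numbers gave no sign of pairing the libraries. Deviations of same-numbered libraries correlated at -0.08 to 0.11 and those of differently numbered libraries at -0.10 to 0.15, which cannot exclude pairing. With the replicate number as a block, 1 gene was higher with compound 1 (PSME2; all genes 193 higher and 219 lower, against 63 and 48 without the block), and 5 were higher and 36 lower with SCH772984 against DMSO, with a median of -0.49. Compound 1 replicate 1 stood apart from the other 2 (chi-square per degree of freedom 10.1 and 7.61, against 2.66 between them), and without it 453 of all genes were higher and 798 lower with compound 1, but 0 proteasome genes. PSMB8, PSMB9 and PSMB10 had 12 to 43 counts per library with DMSO or compound 1.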
